A study of Mus musculus with 6 samples.

Results

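The genes described here are 10 secreted factors of blood and lymphatic vessel growth: the VEGF ligands Vegfa, Vegfb, Vegfc, Vegfd and Pgf, the angiopoietins Angpt1 and Angpt2, and the angiopoietin-like genes Angptl1, Angptl2 and Angptl4. They were taken by gene symbol from a table of 27179 genes, and all 10 were among the 14855 genes with enough counts to be tested. RNA was sequenced from cancer-associated fibroblasts (CAFs) of 3 mammary tumors of raGFP-Wnt1 mice, and each tumor gave 1 CD34 negative and 1 CD34 positive library. These female mice carried a Wnt1 transgene under the MMTV promoter, which is active in mammary epithelium, together with 1 copy of a nuclear GFP reporter knocked into Pdgfra, a receptor gene of fibroblasts. Both fractions therefore shared both alleles, and both came from GFP-positive cells that were sorted by flow cytometry for the surface protein CD34. No treatment was listed, and the age of the mice and whether each tumor came from a separate mouse were not given in the sources used here. Libraries are named by CD34 status and tumor number.

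VEGF ligands are secreted dimers that bind receptor tyrosine kinases on endothelial cells. VEGF-A acts mainly through the receptor encoded by Kdr to drive blood vessel growth. VEGF-B and placental growth factor bind the receptor encoded by Flt1. VEGF-C and VEGF-D bind the receptor encoded by Flt4 on lymphatic endothelium, and cleaved VEGF-C also binds that of Kdr. Angiopoietin-1 activates the receptor Tie2, encoded by Tek, and stabilizes vessels, while angiopoietin-2 often opposes it. Angiopoietin-like proteins share their domain layout but do not bind Tie2, and ANGPTL4 is best known as an inhibitor of lipoprotein lipase.

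Vegfc and Vegfd are the closest relatives among the VEGF genes, and they stood on opposite sides of the comparison between fractions, so the 250 bases before their annotated starts are shown. Vegfd (gene 14205) is on chromosome X, 164373522 to 164402650 on the plus strand, and Vegfc (gene 22341) is on chromosome 8, 54077532 to 54186454 on the plus strand, both protein-coding in RefSeq on GRCm38.p6. The windows are chrX:164373272-164373521 and chr8:54077282-54077531, 5′ to 3′ on the gene strand. Capitals mark CG dinucleotides and the letters TATAAA.
Vegfd: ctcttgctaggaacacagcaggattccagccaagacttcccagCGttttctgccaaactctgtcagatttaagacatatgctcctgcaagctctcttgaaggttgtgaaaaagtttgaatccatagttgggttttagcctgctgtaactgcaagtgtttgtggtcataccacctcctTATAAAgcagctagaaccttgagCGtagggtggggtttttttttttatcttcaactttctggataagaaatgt
Vegfc: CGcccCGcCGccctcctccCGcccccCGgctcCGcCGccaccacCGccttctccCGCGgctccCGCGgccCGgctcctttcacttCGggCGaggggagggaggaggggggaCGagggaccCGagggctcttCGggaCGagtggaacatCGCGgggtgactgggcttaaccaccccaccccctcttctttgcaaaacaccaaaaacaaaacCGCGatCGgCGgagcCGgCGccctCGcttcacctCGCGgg
The Vegfd window was 42.4% G and C, with 2 CG dinucleotides and TATAAA starting 73 bases before the start. The Vegfc window was 71.6% G and C, with 30 CG dinucleotides and no TATAAA. Among 32851 RefSeq windows of the same length, the median was 52.4% G and C with 6 CG dinucleotides, 16.9% of windows had a lower content than that of Vegfd, 6.87% a higher one than that of Vegfc, and 7.59% held TATAAA on the gene strand. Windows were given for 7 of the 10 genes, namely Vegfa, Vegfb, Vegfc, Vegfd, Pgf, Angptl1 and Angptl2, and 1 of the 7, Vegfd, held TATAAA. The core letters ACGTG or GCGTG of the hypoxia-response element, searched on both strands, were present in windows of 3 of the 7 genes. These 7 had 9 windows, and 38.6% of all windows held the letters. Vegfa held them only in its second window, chr17:46025164-46025413, which lies inside the gene. The AP-1 letters TGACTCA, whose other strand reads TGAGTCA, were in none of the 7 and in 4.46% of all windows. Such matches describe letters only.

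The libraries held 16238059 to 86609267 counts and had counts for 14314 to 19220 genes, with CD34 negative library 3 at the low end of genes despite 35310817 counts. Correlations of log2(CPM + 1) across tested genes between any pair of libraries were 0.920 to 0.975, and CD34 negative library 3 had the lowest values. Cd34, the gene of the sorted protein, was at 42.0 to 102 CPM (counts per 1000000 of the library, scaled by library size and composition) in CD34 negative and 563 to 1605 CPM in CD34 positive libraries. Of the defining markers, 6 fibroblast genes summed to 40208 to 58639 CPM in CD34 negative and 39907 to 42519 CPM in CD34 positive libraries. Col1a1 and Col1a2 made up most of these sums. Of the 6, 3 were higher and 3 lower in CD34 negative CAFs in all 3 tumors (46.3% of all genes in either direction). Mean Dcn was 2923 against 6365 CPM in CD34 positive libraries, mean Lum 1364 against 2345 CPM, and mean Pdgfrb 688 against 368 CPM. The 7 blood endothelial markers summed to 7.62 to 21.8 CPM and 3.70 to 18.1 CPM, and the 6 leukocyte markers to 4.15 to 10.4 CPM and 5.45 to 15.3 CPM. The 6 pericyte markers summed to 211 to 236 CPM and 86.8 to 188 CPM. The 6 epithelial markers summed to 48.3 to 149 CPM and 12.8 to 130 CPM.

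The first comparison asked how the ligand genes differed between CD34 negative and CD34 positive CAFs. The genes were chosen by knowledge of results of this same contrast, so their differences are given as a description, with no p-values. In limma-voom, a linear model of log2 CPM fitted across all genes, 1 of the 10 passed an adjusted p of 0.05, against 0.121% of all genes tested. With the tumor as a block, which compares the fractions within tumors, 2 of 10 passed, against 8.57% of all genes. The 2 were Vegfd, which was lower as 4.25% of all genes were, and Angpt1, which was higher as 4.32% were, and with the block in edgeR only Vegfd passed. The libraries of the groups did not overlap for 4 of the 10 genes, against 20.4% of all genes, and the sign was the same in all 3 tumors for 5 of 10, against 46.3%. Nothing is read from these shares, since the contrast entered the choice. The median log2 fold change, CD34 negative over CD34 positive, was 0.07 over the 10 genes and -0.03 over all genes tested.

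**Figure D1:**
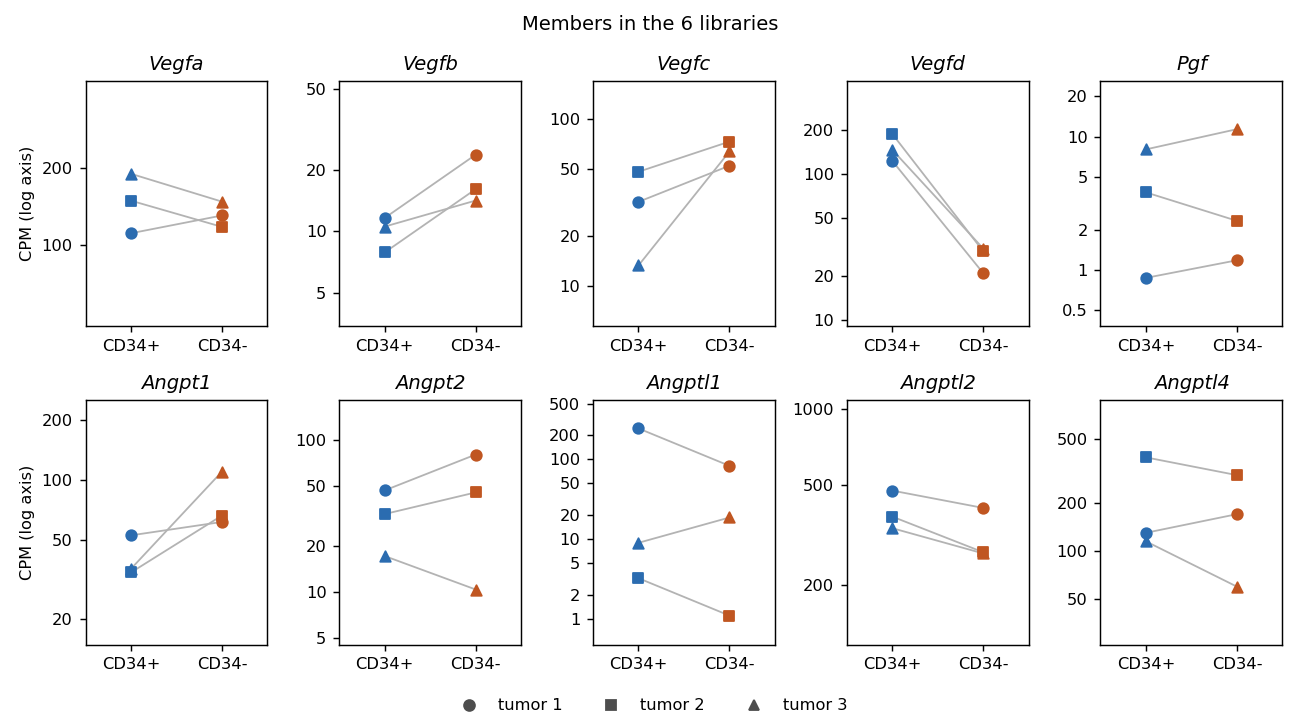
CPM on a log axis for each of the 10 genes in the 6 libraries, blue for CD34 positive and orange for CD34 negative, with a marker shape for each tumor and a grey line joining the 2 libraries of a tumor. Vegfd falls from CD34 positive to CD34 negative in all 3 tumors, Vegfb, Vegfc and Angpt1 rise in all 3, and Angptl1 is spread most widely between tumors.

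Vegfd, which encodes the lymphatic vessel growth factor VEGF-D, was at 20.9, 29.5 and 30.8 CPM in CD34 negative libraries 1, 2 and 3. In CD34 positive libraries 1, 2 and 3 it was at 123, 188 and 146 CPM. Every CD34 positive library was above every CD34 negative library. The means were 27.1 ± 5.40 and 152 ± 32.9 CPM (SD, n = 3), a 5.62-fold higher mean in CD34 positive CAFs. The log2 fold change was -2.50 ± 0.23 (SE), and -2.50 ± 0.15 with the tumor block. Within tumors 1, 2 and 3 the log2 ratio was -2.56, -2.67 and -2.25. In these bulk samples, fewer cells that express a gene and less RNA per cell cannot be told apart. When 1 library or both libraries of 1 tumor were left out, the fold change stayed between -2.64 and -2.32, but it passed the threshold in only 4 of these 9 fits. It did not pass without CD34 negative library 3 (-2.58), CD34 positive library 2 (-2.35), CD34 positive library 3 (-2.52), tumor 2 (-2.44) or tumor 3 (-2.60).

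Vegfc, the second lymphatic ligand gene, ran the other way, at 52.3, 72.8 and 63.6 CPM in CD34 negative and 31.8, 48.1 and 13.3 CPM in CD34 positive libraries. The groups did not overlap, although CD34 positive library 2 lay close to CD34 negative library 1. The log2 fold change was 1.07 ± 0.41 (SE), with ratios of 0.72, 0.60 and 2.26 within tumors 1, 2 and 3. Tumor 3 thus had the widest gap, and the fold change was 0.59 without that tumor, 0.57 without CD34 positive library 3, 1.61 without tumor 2 and 1.73 without CD34 positive library 2. The pericyte markers, a group of genes that mural cells of vessels use, also had higher sums in CD34 negative libraries without overlap. With the block, 3 of the 6 (Cspg4, Notch3 and Mcam) were called higher, against 4.32% of all genes. A further 2 (Kcnj8 and Abcc9) were called lower, against 4.25%. The part of the pericyte markers in the results for Vegfc, Vegfb, Vegfd, Angpt1, Flt1 and Tek was not tested.

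Vegfb (gene 22340, chromosome 19, 6982472 to 6987651, minus strand), whose product has few effects on vessel sprouting and is linked to fat metabolism and cell survival, was at 23.8, 16.1 and 14.2 CPM in CD34 negative and 11.6, 7.88 and 10.5 CPM in CD34 positive libraries. All CD34 negative libraries lay above all CD34 positive ones, and the log2 fold change was 1.00 ± 0.30. On all libraries it did not pass the threshold in limma-voom with or without the block, and with the block it passed in DESeq2 and not in edgeR. Vegfa (gene 22339, chromosome 17, 46016993 to 46032377, minus strand), the main driver of angiogenesis, showed no such separation, with 130, 117 and 147 CPM in CD34 negative and 111, 149 and 189 CPM in CD34 positive libraries. Its log2 fold change was -0.16 ± 0.22, with a ratio of 0.23 in tumor 1 and -0.34 and -0.36 in tumors 2 and 3. Pgf (gene 18654, chromosome 12, 85166637 to 85177785, minus strand), which encodes placental growth factor, was the least abundant of the 5, at 1.18, 2.32 and 11.4 CPM against 0.867, 3.80 and 8.01 CPM. It was highest in both libraries of tumor 3, and its log2 fold change was -0.46 ± 0.88 without and 0.07 ± 0.40 with the block.

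Levels of different genes were compared per kilobase of the gene length in the deposited table. In CD34 positive CAFs, Vegfd was the most abundant VEGF ligand transcript, at 81.1 ± 17.5 CPM per kb (SD, n = 3), followed by Vegfa at 35.8 ± 9.38, Vegfc at 16.5 ± 9.27, Vegfb at 7.82 ± 1.51 and Pgf at 2.69 ± 2.29 CPM per kb. In CD34 negative CAFs, Vegfc at 33.4 ± 5.47 and Vegfa at 31.5 ± 3.59 CPM per kb led and lay within their SDs of each other, as did Vegfd at 14.4 ± 2.88 and Vegfb at 14.1 ± 3.97 CPM per kb. Pgf was lowest at 3.16 ± 3.56 CPM per kb.

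Vegfd made up 12.4%, 16.3% and 15.8% of the summed VEGF ligand signal per kb in CD34 negative libraries 1, 2 and 3, and 55.2%, 58.9% and 54.2% in CD34 positive libraries. Vegfc made up 31.1%, 40.1% and 32.6% in CD34 negative and 14.3%, 15.1% and 4.91% in CD34 positive libraries. The log2 ratio of Vegfd to Vegfc per kb was -1.32, -1.30 and -1.04 in CD34 negative libraries and 1.95, 1.97 and 3.46 in CD34 positive libraries, so the order of the lymphatic ligand genes was inverted in all 3 tumors. Vegfa exceeded Vegfd 2.80, 1.79 and 2.15 times in CD34 negative libraries and was 0.406, 0.356 and 0.582 times Vegfd in CD34 positive libraries. The summed ligand signal was 89.4 to 104 CPM per kb in CD34 negative and 119 to 170 CPM per kb in CD34 positive libraries. These shares rest on the same counts as the fold changes above and are no separate evidence.

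**Figure D2:**
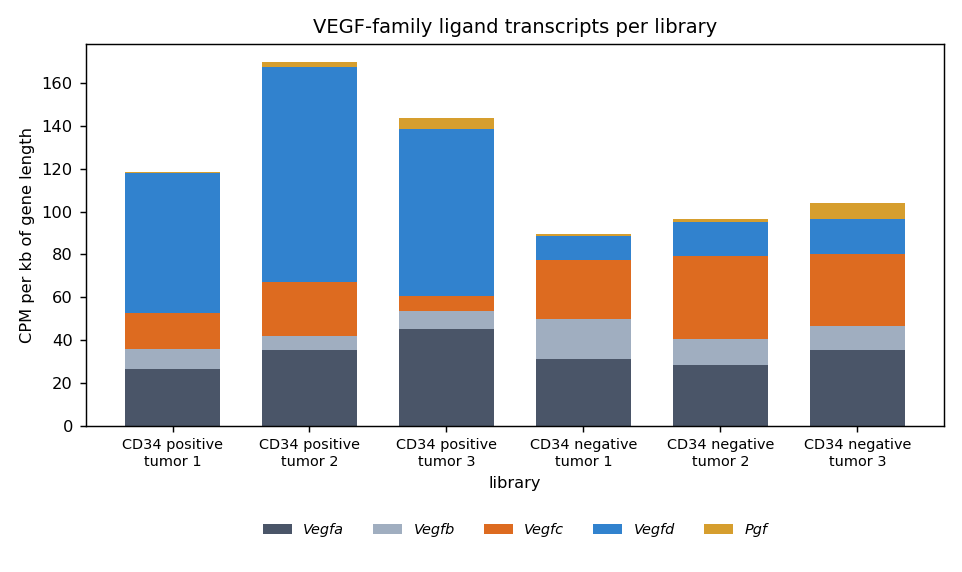
Stacked CPM per kb of gene length for the 5 VEGF ligand genes in each of the 6 libraries. The blue Vegfd segment is 54.2% to 58.9% of the bar in CD34 positive libraries and 12.4% to 16.3% in CD34 negative libraries, where the orange Vegfc segment is the wider one.

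Angpt1 (gene 11600, chromosome 15, 42424667 to 42676977, minus strand), the agonist of Tie2, was at 61.4, 66.2 and 110 CPM in CD34 negative and 52.6, 34.3 and 35.7 CPM in CD34 positive libraries. All CD34 negative libraries were above all CD34 positive ones, with the narrowest gap in tumor 1. The log2 fold change was 0.99 ± 0.27 (SE) without and 0.99 ± 0.22 with the block, and the ratios were 0.22, 0.95 and 1.62 within tumors 1, 2 and 3. With the block it passed in limma-voom and DESeq2 but not in edgeR, and without tumor 3 the log2 fold change was 0.62 in limma-voom with no block. An antisense gene, Gm17473, overlaps its exons and had 36 counts against 15226 for Angpt1. Whether strand was used in the counting was not given in the sources used here.

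Angpt2 (gene 11601, chromosome 8, 18690263 to 18741562, minus strand) separated by tumor and not by fraction. It was at 80.1, 45.1 and 10.4 CPM in CD34 negative and 46.5, 32.5 and 17.2 CPM in CD34 positive libraries. Both fractions had the order tumor 1, tumor 2, tumor 3, and the log2 fold change between fractions was 0.30 ± 0.70, with ratios of 0.78, 0.47 and -0.73. The ratio of Angpt1 to Angpt2 per kb was 0.465, 0.889 and 6.43 in CD34 negative and 0.686, 0.639 and 1.26 in CD34 positive libraries. Angpt1 exceeded Angpt2 in both libraries of tumor 3 and in none of the other libraries. Angpt2 lies inside Mcph1, on the opposite strand and with no shared exon, and Mcph1 had 1995 counts against 10935.

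Angptl2 (gene 26360, chromosome 2, 33215951 to 33247725, plus strand), which encodes a secreted factor linked to tissue inflammation, had the highest mean CPM of the 10 genes, at 406, 271 and 268 CPM in CD34 negative and 475, 375 and 337 CPM in CD34 positive libraries. Within each tumor the CD34 negative library was lower, with ratios of -0.23, -0.47 and -0.33, and the groups overlapped. The log2 fold change was -0.36 ± 0.23 without and -0.34 ± 0.12 with the block. Angptl4 (gene 57875, chromosome 17, 33774900 to 33781575, minus strand) was at 170, 299 and 60.0 CPM in CD34 negative and 130, 386 and 115 CPM in CD34 positive libraries. Tumor 2 was highest in both fractions, and the log2 fold change was -0.26 ± 0.62. Per kb, the levels of Angptl4 were 92.7 ± 62.8 in CD34 negative and 111 ± 79.9 CPM per kb in CD34 positive CAFs, and those of Angptl2 91.4 ± 22.9 and 115 ± 20.8, within their SDs of each other.

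Angptl1 (gene 72713, chromosome 1, 156839023 to 156861078, plus strand) varied most. It was at 83.1, 1.11 and 18.7 CPM in CD34 negative and 244, 3.25 and 9.03 CPM in CD34 positive libraries. Tumor 1 was highest and tumor 2 lowest in both fractions. The ratio between fractions was -1.56 in tumor 1, -1.54 in tumor 2 and 1.05 in tumor 3, so no direction held in all 3. The log2 fold change was 0.43 ± 1.72 without and -1.02 ± 0.39 with the block in limma-voom, and without the block it was -1.31 in edgeR and -1.33 in DESeq2. Angptl1 lies inside Ralgps2 on the opposite strand, which had 886 counts against 9874.

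**Figure D3:**
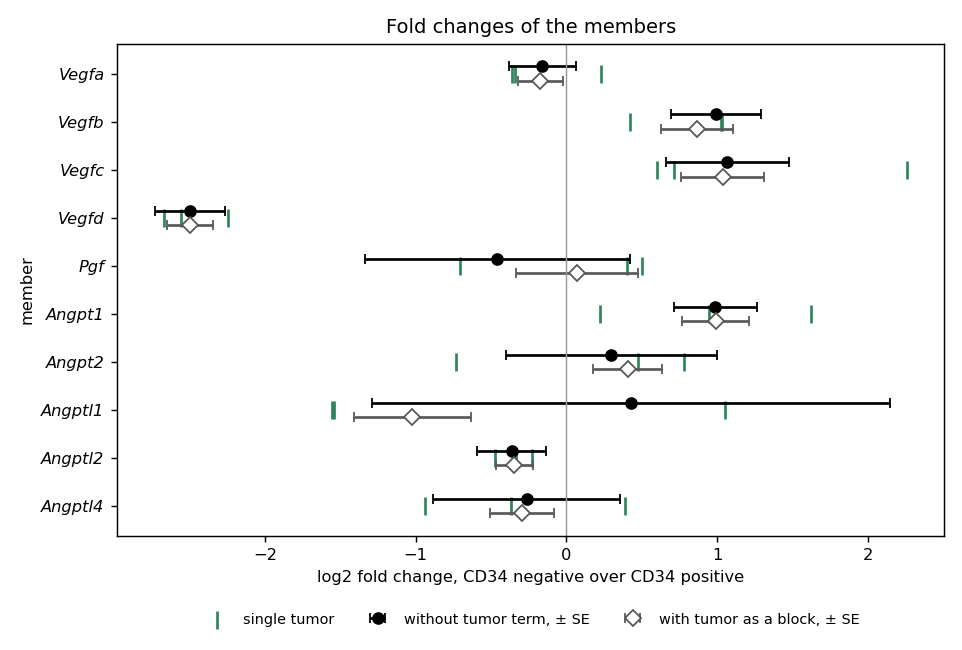
Log2 fold change of CD34 negative over CD34 positive CAFs for the 10 genes. Black circles are the fit without and open diamonds the fit with the tumor block, each with its SE, and green ticks are the 3 tumors. The ticks of Vegfd lie between -2.67 and -2.25, and those of Angptl1 on both sides of 0.

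The second comparison asked which of these genes differed between tumors, a question that the rule for choosing them did not use. The genes were still chosen with earlier results of these data known, so the adjusted p-values below carry that limit. An F test of the tumor term in limma-voom, with the fraction in the model, called 3 of the 10 genes after Benjamini-Hochberg adjustment, against 4.03% of all genes tested. They were Angptl1 (adjusted p = 0.0062), Angptl4 (adjusted p = 0.00895) and Angpt2 (adjusted p = 0.0148). The means of the 2 fractions of a tumor spanned 6.22 on the log2 scale for Angptl1, 2.19 for Angpt2 and 2.03 for Angptl4. The order of tumors was not shared: Angptl1 was highest in tumor 1 and lowest in tumor 2, Angpt2 fell from tumor 1 to tumor 2 to tumor 3, and Angptl4 was highest in tumor 2 and lowest in tumor 3. Pgf spanned 3.21 with an adjusted p of 0.104 in the same limma-voom test. For Vegfd the span was 0.56 and the adjusted p 0.191 in limma-voom, beside a difference between fractions of 2.49. The other genes had adjusted p from 0.114 to 0.499 in this limma-voom test and spanned 0.40 to 1.03.

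The tumor calls depended on the test. With edgeR's quasi-likelihood test only Angptl1 passed (adjusted p = 0.031), and with the DESeq2 likelihood ratio test Angpt2, Angptl1, Angptl4, Pgf and Angptl2 passed. Without tumor 1, Angptl1 did not pass (adjusted p = 0.0582 in limma-voom), while Angpt2 and Angptl4 passed without tumor 1, 2 or 3. Fits on fewer libraries left little spread to estimate, so passing in them is no sign of robustness. Some epithelial markers moved with the tumors too. Of the 6, 2 (Epcam and Krt8) were called for the tumor term, against 4.03% of all genes. Krt8, a keratin of luminal epithelium, was at 61.7, 39.3 and 8.94 CPM in CD34 negative libraries. In CD34 positive libraries it was at 43.5, 26.5 and 2.96 CPM, the same order as Angpt2. Krt5 and Krt14 did not follow this order in CD34 negative libraries, at 4.06, 6.55 and 3.38 CPM and at 14.2, 24.5 and 12.2 CPM. They followed it in CD34 positive libraries. The part of the epithelial markers in the tumor differences was not tested.

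The receptors of these ligands were examined next, in 7 genes listed by role. This list and those below were drawn up with earlier results of these data known. Their adjusted p-values are therefore descriptive and no independent test. Without the block, 0 of the 7 passed in limma-voom, with 2 at an unadjusted p under 0.05, against 14.3% of all genes tested. With the block 1 was higher and 1 lower, against 8.57% of all genes called in either direction. Tek, the receptor gene of the angiopoietins, was lower in CD34 negative CAFs, at 13.4, 6.53 and 5.45 CPM against 65.6, 48.8 and 116 CPM. All CD34 negative libraries were below all CD34 positive ones. Its log2 fold change was -3.12 ± 0.47 (adjusted p = 0.0578 in limma-voom) and -3.09 ± 0.35 with the block (adjusted p = 0.00154 in limma-voom), lower in 3 of 3 tumors. Flt1, which binds VEGF-A, VEGF-B and placental growth factor, was higher in CD34 negative CAFs, at 17.8, 58.6 and 44.2 CPM against 7.37, 17.7 and 3.00 CPM. Its log2 fold change was 1.79 ± 0.71 (adjusted p = 0.306 in limma-voom) and 2.03 ± 0.34 with the block (adjusted p = 0.00768 in limma-voom), higher in 3 of 3 tumors. With the block in edgeR its adjusted p was 0.0636, and without the block the fold change was 3.06 without CD34 positive library 2 and 1.19 without tumor 3. CD34 negative library 1 and CD34 positive library 2 were nearly level, and the groups did not overlap.

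The remaining receptors were not called in either fit. Kdr was at 1.84 to 4.49 CPM in CD34 negative and 3.84 to 12.6 CPM in CD34 positive libraries. Flt4, the receptor gene of VEGF-C and VEGF-D, did not exceed 0.620 CPM in any library, and Tie1 did not exceed 1.91 CPM. The co-receptors were well expressed, with Nrp1 at 195 to 297 CPM over the 6 libraries and a log2 fold change of 0.00 ± 0.22, and Nrp2 at 56.8 to 83.4 CPM in CD34 negative and 37.3 to 84.5 CPM in CD34 positive libraries. Endothelial markers stood near these low levels: Pecam1 was at 0.550 to 5.95 CPM in CD34 negative and 1.73 to 12.9 CPM in CD34 positive libraries. Emcn had no count in 3 of the 6 libraries. With the block in limma-voom, 0 of 6 tested blood endothelial markers were called, against 8.57% of all genes. Per kb, Tek was at 1.82 ± 0.925 in CD34 negative and 16.5 ± 7.47 CPM per kb in CD34 positive CAFs (SD, n = 3). Pecam1 was at 0.954 ± 0.818 and 1.67 ± 1.94 CPM per kb. Of the 3 tested lymphatic markers, Reln was called higher with the block (4.32% of all genes). Prox1 was at 0 to 0.872 CPM against 0.632 to 8.54 CPM, and Lyve1 at 0 to 0.285 CPM against 0.706 to 1.05 CPM. The part of these markers in the results for Vegfd, Tek and Flt1 was not tested.

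**Figure D4:**
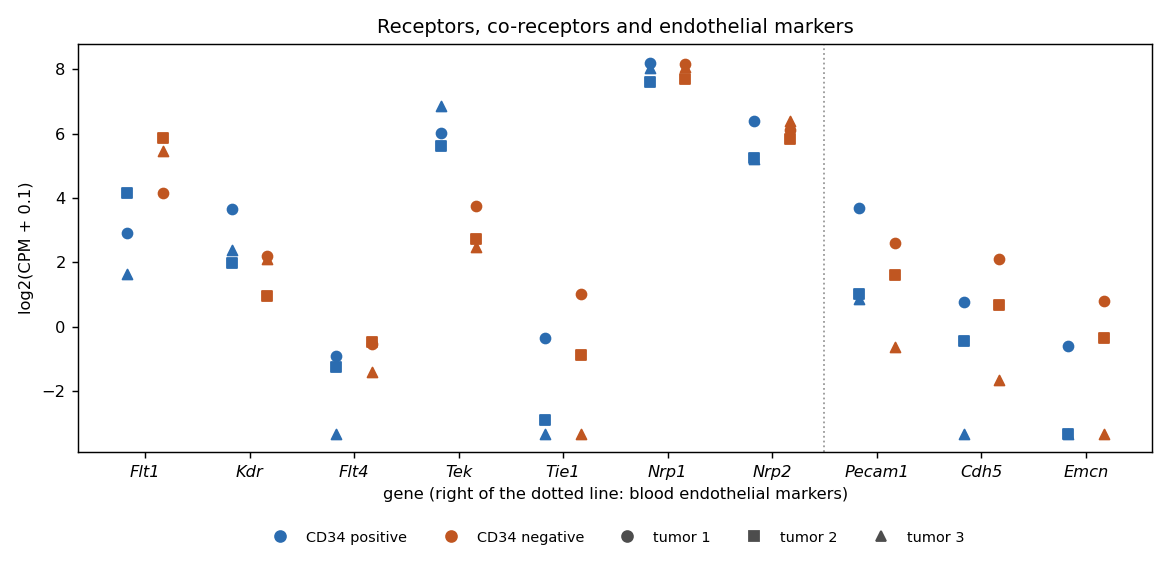
Log2(CPM + 0.1) of 7 receptor and co-receptor genes and, right of the dotted line, 3 blood endothelial markers, by fraction (colour) and tumor (shape). Tek lies higher and Flt1 lower in all CD34 positive libraries, and Flt4 and Tie1 lie as low as the endothelial markers.

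VEGF-C and VEGF-D are made as long precursors and are activated by cleavage, so 7 genes of that step were examined. Without the block 0 of 7 passed in limma-voom, with 5 at an unadjusted p under 0.05 (14.3% of all genes). With the block 3 were higher and 1 lower in CD34 negative CAFs (8.57% of all genes in either direction), and 6 of 7 had the same sign in all 3 tumors, 5 higher and 1 lower (46.3% of all genes in either direction). Ctsd, the gene of the protease cathepsin D, was at 988, 913 and 783 CPM in CD34 negative and 547, 509 and 317 CPM in CD34 positive libraries, with a block log2 fold change of 1.00 ± 0.14 (adjusted p = 0.00331 in limma-voom). Ccbe1, which encodes a cofactor of VEGF-C cleavage, changed by 0.96 ± 0.25 (adjusted p = 0.0479 in limma-voom with the block), and Furin, a proprotein convertase, by 0.58 ± 0.15 (adjusted p = 0.0488). Adamts14, a relative of the VEGF-C protease ADAMTS3, was lower, with a change of -0.85 ± 0.19 (adjusted p = 0.0246 in limma-voom with the block). Adamts3 itself was at 6.60 to 16.7 CPM against 12.5 to 20.7 CPM and was not called.

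Genes upstream of the ligands were taken from lists of the hypoxia-inducible factor (HIF) pathway, which induces Vegfa and Angptl4, of PPAR and lipoprotein lipase genes, which include inducers and the target of ANGPTL4, and of AP-1 factors, since Vegfd was first described as induced by c-Fos. Of 16 HIF genes, 0 passed without the block in limma-voom, with 4 at an unadjusted p under 0.05 (14.3% of all genes). With the block 1 was higher and 5 lower (8.57% of all genes in either direction), and 3 were called for the tumor term (4.03% of all genes). Epas1, the gene of HIF-2 alpha, was higher, with a block change of 0.89 ± 0.17 (adjusted p = 0.0146 in limma-voom). Adm, which encodes the vessel-acting peptide adrenomedullin, was lower, at 88.7, 82.0 and 32.6 CPM against 166, 337 and 203 CPM, with a block change of -1.82 ± 0.26 (adjusted p = 0.00397 in limma-voom). Its groups did not overlap. Pdk1 changed by -1.12 (adjusted p = 0.0235), Pgk1 by -0.94 (adjusted p = 0.0354) and Ndrg1 by -0.73 (adjusted p = 0.0109), all by limma-voom with the block. Pdk1 and Pgk1 encode a regulator of pyruvate entry into mitochondria and a glycolytic enzyme. The sixth gene, Hif1a, lies outside the naming rule, was named after its values were seen, and changed by -0.59 (adjusted p = 0.0291 with the block). Without CD34 positive library 2, Pgk1 changed by -0.41 and Epas1 by 1.38 with no block, and without CD34 negative library 1 Hif1a changed by -0.25.

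Of the 8 tested PPAR and lipoprotein lipase genes, 0 passed in limma-voom without the block, with 1 at an unadjusted p under 0.05 (14.3% of all genes), and 0 passed with it. Lpl, the gene of the enzyme that ANGPTL4 inhibits, was at 269 to 622 CPM against 324 to 991 CPM and was called for the tumor term (adjusted p = 0.00513 in limma-voom), highest in tumor 1 in both fractions, whereas Angptl4 was highest in tumor 2. Lpl was named after its values were seen. Of the 7 AP-1 genes, 0 passed without the block in limma-voom, with 0 at an unadjusted p under 0.05, and Jund was higher with it, by 0.71 ± 0.19 (adjusted p = 0.0479 in limma-voom), but by 0.31 without CD34 negative library 1 and no block. Fos was at 3838 to 5590 CPM in CD34 negative and 3750 to 5251 CPM in CD34 positive libraries, with a log2 fold change of 0.00 ± 0.24. The part of AP-1 factors in the difference of Vegfd was not tested.

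Among the other angiopoietin and angiopoietin-like genes, levels were low. Angpt4 was at 2.34 to 6.31 CPM over all libraries. Angptl7 was lower with the block, with a change of -3.84 ± 1.01 (adjusted p = 0.0463 in limma-voom), with 0.837, 0.133 and 0 CPM in CD34 negative and 11.5, 0.258 and 2.89 CPM in CD34 positive libraries. Its groups overlapped, and without the block its adjusted p was 0.719 in limma-voom. Its fold change then was -2.39, and it ranged from -5.10 without CD34 positive library 2 to -0.88 without tumor 3.

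Secreted factors outside the VEGF and angiopoietin families went both ways. Of 11 angiogenic factors, 0 passed without the block in limma-voom, with 4 at an unadjusted p under 0.05 (14.3% of all genes), and with the block 2 were higher and 2 lower (8.57% of all genes in either direction). Ccn2, a matrix-bound growth factor, was higher, with a change of 1.09 ± 0.19 (adjusted p = 0.0087 in limma-voom with the block) and no overlap of the groups. Mdk, the gene of the heparin-binding factor midkine, changed by 1.02 ± 0.16 (adjusted p = 0.00517). Apln, which encodes the endothelial peptide apelin, was lower with the block, with a change of -2.06 ± 0.33 (adjusted p = 0.00615 in limma-voom, and 0.0796 in edgeR). It was at 1.51, 8.04 and 3.85 CPM in CD34 negative and 2.91, 42.4 and 8.18 CPM in CD34 positive libraries. The groups overlapped, CD34 positive library 2 stood far above the rest, and without that library the fold change went from -2.45 to -0.74 with no block. Cxcl12, which encodes the ligand of CXCR4, changed by -0.82 ± 0.19 with the block (adjusted p = 0.0292 in limma-voom), and with no block by -0.77 on all libraries and -0.37 without CD34 positive library 3. Of 11 angiogenesis inhibitors, 0 passed without the block in limma-voom, with 2 at an unadjusted p under 0.05 (14.3% of all genes). With it, 2 passed (8.57% of all genes). Timp3, whose product also blocks VEGF binding to its receptor KDR, was higher by 1.03 ± 0.27 with the block (adjusted p = 0.0479 in limma-voom). Its groups overlapped, with ratios of 0.16, 0.96 and 1.96 in tumors 1, 2 and 3. With the block its adjusted p was 0.155 in edgeR and 0.367 in DESeq2. Thbs2, the gene of thrombospondin-2, was higher by 0.59 ± 0.14 with the block (adjusted p = 0.0354 in limma-voom, and 0.125 in edgeR).

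Over the 73 genes of these lists, 71 of them tested, 0 passed without the block in limma-voom, with 18 at an unadjusted p under 0.05, against 14.3% of all genes tested. Without the block, DESeq2 called 6 of them, limma-voom with sample quality weights 1 and edgeR 0. With the block, 10 were higher and 10 lower, against 8.57% of all genes called in either direction, and 6 passed in edgeR. In all, 5 of the 20 (Tek, Ctsd, Epas1, Adm and Mdk) passed in all 6 fits with a block. These were the fits in limma-voom, edgeR and DESeq2 and those in limma-voom without each tumor. Fits without a tumor had few libraries left, so passing in them adds little. The median log2 fold change was 0.00 without and 0.02 with the block, beside -0.03 and -0.01 over all genes tested.

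**Figure D5:**
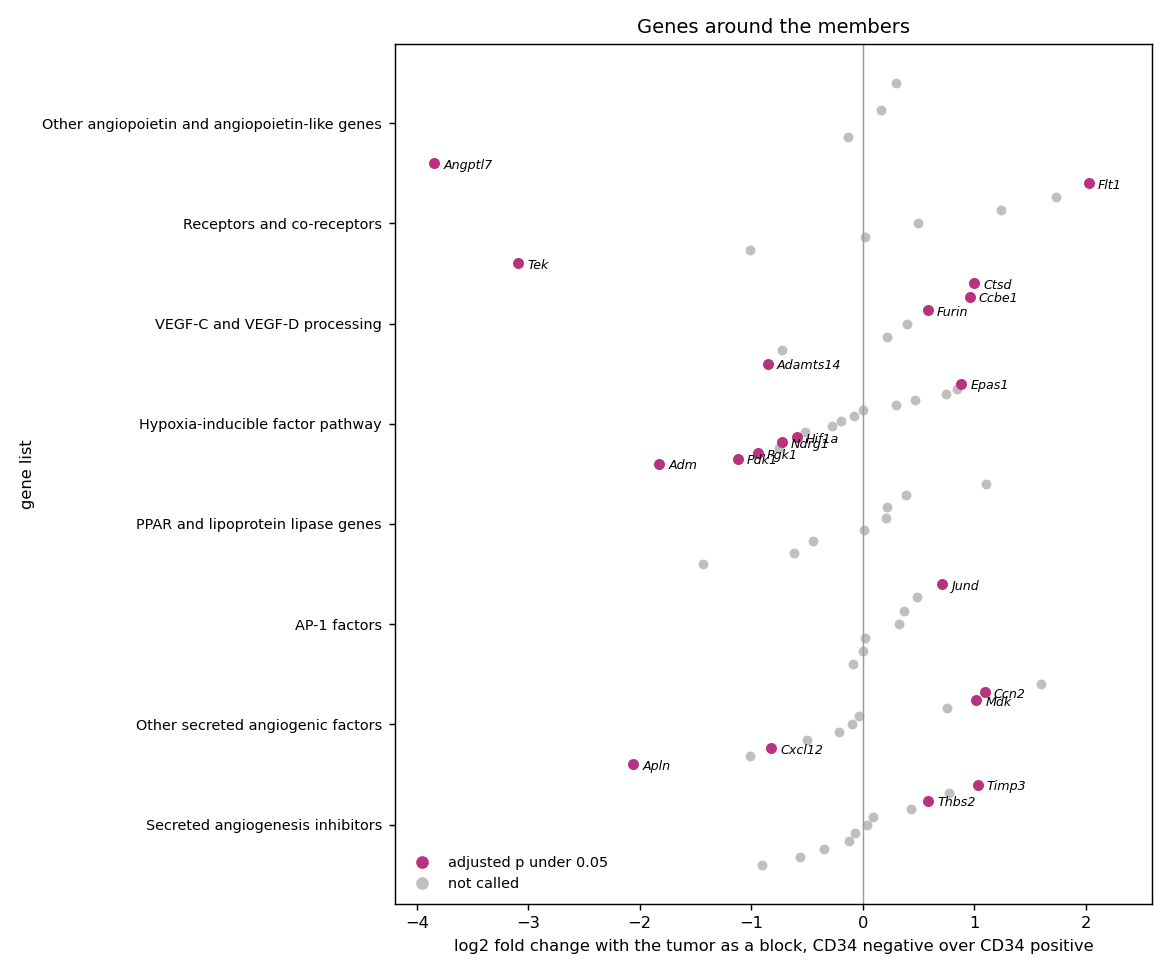
Log2 fold change with the tumor block, CD34 negative over CD34 positive, for the 71 tested genes of 8 lists, 1 point per gene. Named pink points are the 20 genes with an adjusted p under 0.05 in limma-voom, 10 on each side of 0, and Angptl7 and Tek lie farthest to the left.

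The genes whose pattern over the 6 libraries was most like that of Vegfd were Rpl32, Naca, Gm10029, Cav1, Rbbp7, Rps15a, Ggh and Rpl35, by Pearson correlation of log2 CPM among 8943 genes whose mean log2 CPM was 3 or more. The coefficients ran from 0.987 to 0.997 over libraries that share the division into fractions and tumors. Cav1, the gene of the membrane protein caveolin-1, had a fold change near that of Vegfd, at 21.1 against 114 CPM and a log2 fold change of -2.49. The other 7 had smaller changes, from -1.04 to -0.37.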

How the data were processed

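Bulk RNA sequencing was done on CD34 negative and CD34 positive CAFs sorted from 3 raGFP-Wnt1 tumors, 3 libraries per group. According to the methods and labels, cells were snap frozen, Illumina TruSeq libraries were made and sequenced, reads were mapped to GRCm38/mm10, and Rsubread counted them per NCBI gene. The deposited values are raw counts per gene and library, beside a gene length in bases that was used for levels per kb. Strand use and handling of reads with several matches are not given in the sources used here.

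Groups and tumor numbers were read from the sample titles. Following the methods, genes were filtered with filterByExpr (minimum count 10), scaled by TMM and compared with limma-voom, two-sided, with Benjamini-Hochberg adjustment over all 14855 genes tested and a threshold of 0.05. Of these, 292 had no symbol and were kept, whereas the methods removed genes without annotation. R 4.3.3, limma 3.58.1, edgeR 4.0.16 and DESeq2 1.42.0 were used. CPM, counts per 1000000 library counts, are scaled by library total and TMM factor (0.941 to 1.04). Ratios within a tumor are differences of voom log2 CPM. Both fractions of a pair came from one tumor, and deviations from the group means correlated at 0.373, 0.350 and 0.219 between the libraries of tumors 1, 2 and 3. Because the methods state no tumor term, values are given without one unless the tumor block is named. Fits were also run on simulated counts, with changes set only in genes with a mean log2 CPM of 3 or more. That run says nothing of genes with low counts, and no result here rests on it.

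The 10 genes and all 17 gene lists were chosen with earlier results of these data known. Genes named are the 10, all receptors, up to 5 called genes per list by size of change, and the 8 genes most correlated with Vegfd. Other genes (Adamts3, Angpt4, Fos, Hif1a, Lpl and the markers) were named after their values were seen. Counting depth limits low genes most. Without the block, p-values between fractions set a difference against the spread between libraries of a group, ignoring that they are paired by tumor. With the block, they set it against the spread of differences within tumors. Alternatives covered scaling, filter, annotation, test, sample weights, the block, and leaving out each library or tumor.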

Additional observations from a re-analysis of the deposited data

How the results depend on the processing

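With the tumor as a replicate block, the calls rose from 18 to 1273 of all genes, from 1 to 2 of the 10 vascular factor genes, and from 0 to 20 of the pathway genes. With the block in edgeR they were 575, 1 and 6, so that Angpt1 was no longer called, and with the block in DESeq2 1733, 4 and 22. With the block and without tumor 1, 2 or 3, they were 1134, 851 and 2019 for all genes, 3, 4 and 6 for the 10 genes, and 18, 11 and 28 for pathway genes. Without the block, edgeR called 9 genes in all, DESeq2 698 and 6 of the pathway genes, and sample quality weights 161 and 1. Leaving out a library or a tumor gave 0 to 86 genes and 0 to 1 of the 10. The tumor term was called for 598 genes and 3 of the 10, for 167 and 1 in edgeR, for 1534 and 5 in DESeq2, and for 410 to 5180 and 2 to 7 when a library or a tumor was left out. Fits with fewer libraries also tested other numbers of genes and left little spread to estimate, so passing in them is no sign of robustness. Angptl1, at 0.43 without the block, had the other sign in 12 of 21 alternatives, among them the block (-1.02) and the block without tumor 2 (-0.89) or tumor 3 (-1.58). The cause of these changes was not tested.

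Vegfd, Vegfb, Vegfc, Angpt1 and Angptl2 kept their sign in all 21 alternatives, whereas Vegfa, Pgf, Angpt2, Angptl1 and Angptl4 changed sign in at least 1. Vegfd passed in 16 of the 21. This count is a description and no support, since the contrast entered the choice of genes and all fits reuse the same libraries. Low counts limit what can be said of Flt4, Tie1 and Angptl7, and 3 tumors limit the precision of every fold change.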
